A study of Homo sapiens with 18 samples.

Results

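The effect of UPF1 depletion in the presence of androgen was measured in LNCaP cells, an androgen-responsive line of human prostate adenocarcinoma, by sequencing of total RNA after removal of ribosomal RNA. The libraries compared were 3 with UPF1 siRNA and 3 with non-targeting control siRNA, 6 of 18 in the series, and were chosen by their labels alone. All 6 came from cells kept in androgen-deprived medium from the day after transfection and then given the synthetic androgen R1881 at 5 nM for 48 h. The series set out to measure how UPF1, and the corepressor RCOR1 in other libraries, contribute to the androgen response. UPF1 was targeted with 1 pool of siRNAs, so that effects of the pool beyond UPF1 cannot be told apart from those of UPF1. Vehicle, in the libraries used for comparison, was ethanol. The triplicates were biological replicates per the labels.

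UPF1 is an RNA helicase that drives nonsense-mediated decay (NMD), the pathway that removes transcripts in which translation stops too early, in most cases upstream of an exon junction complex. SMG1 phosphorylates UPF1 together with its regulators SMG8 and SMG9, UPF2 and UPF3 bridge it to the exon junction complex, and SMG5 and SMG6 act on the bound RNA. Several NMD factor mRNAs and several stress-response mRNAs are themselves known NMD substrates. UPF1 also takes part in the decay of replication-dependent histone mRNAs at the end of DNA synthesis. Prostate luminal cells express a secretory programme that depends on androgen and that R1881 activates.

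Levels are given as CPM, each library's count scaled to a common total, after scaling by trimmed mean of M values. Differences are log2 fold changes, UPF1 siRNA against control siRNA, with the standard error (SE) derived from the edgeR quasi-likelihood F test fitted to all 18 libraries. Calls rest on p-values adjusted by the Benjamini-Hochberg method over all genes tested, with 0.05 as the threshold. Counts per library lay between 12499252 and 17338235 in the 6 libraries. The cells had the markers of their label: all 10 luminal prostate epithelial markers stood above 1 CPM, with a summed level of 11800 to 12800 CPM with control siRNA and 11100 to 12100 CPM with UPF1 siRNA.

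UPF1 siRNA libraries 1 and 2 stood apart from library 3 in AT-rich transcripts. Among the 1698 genes with a transcript GC content below 40%, the median deviation from the mean of all 18 libraries was -0.77, -0.58 and 0.05 log2 CPM in UPF1 siRNA libraries 1, 2 and 3. In the control libraries it was -0.34, 0.32 and 0.33. The nuclear RNA MALAT1 was likewise low in UPF1 siRNA libraries 1 and 2 and in control library 1, at 14540, 34580 and 33760 CPM with control siRNA and 3761, 4588 and 21390 CPM with UPF1 siRNA. In this bin 28.9% of genes were called lower and 3.42% higher with all 3 UPF1 siRNA libraries. With library 3 as the only UPF1 siRNA library these shares were 1.59% and 2.24%, and the bin's median moved from -0.50 to -0.11. Library 3 was therefore also fitted alone against the 3 control libraries, assumed to vary like the other groups. It is also part of the full comparison, so the agreement of the 2 fits in direction is not independent. With 1 UPF1 siRNA library in place of 3, the fit also has less power. A call lost in it does not by itself show a smaller difference. The fit to library 3 alone had a tilt with GC content too. Among the 4439 genes above 55% GC, the median moved from 0.04 with all 3 libraries to -0.11 with library 3 alone. In these genes control libraries 1, 2 and 3 deviated by 0.20, -0.05 and -0.07, and UPF1 siRNA library 3 by -0.02. With an offset for GC content in each library, 155 of 183 genes examined kept their side of the threshold and 17 gained a call. No gene lost its call or reversed a called direction, and 11 uncalled genes changed sign. Whether GC content accounts for any single difference was not tested beyond this fit.

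**Figure D1:**
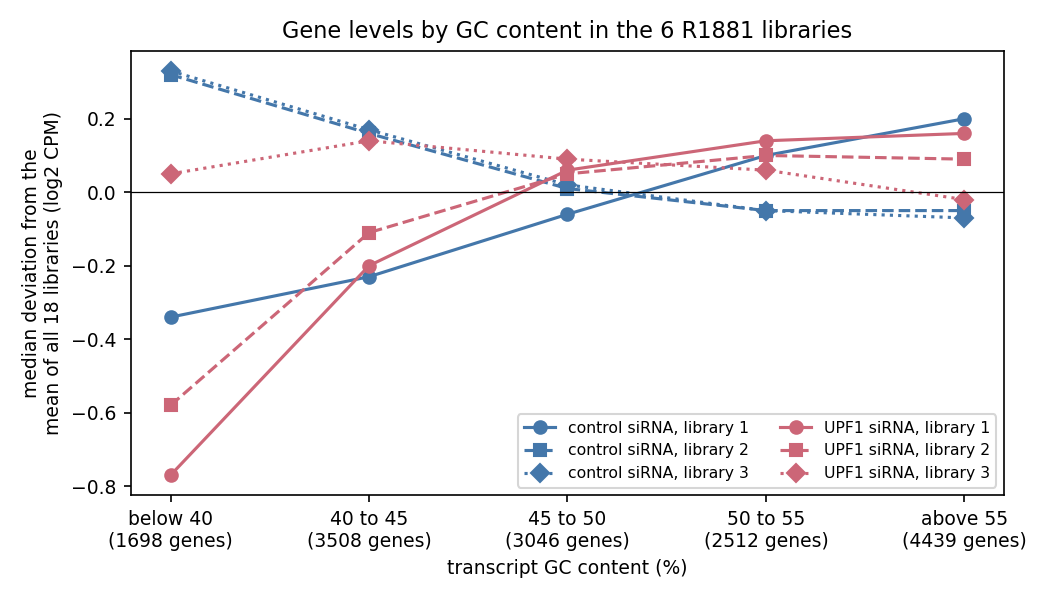
Median deviation of gene levels from the mean of all 18 libraries (log2 CPM, y axis) by transcript GC content (x axis, in percent, with the number of genes per bin) for the 3 control siRNA and the 3 UPF1 siRNA libraries given R1881. UPF1 siRNA libraries 1 and 2 lie at -0.77 and -0.58 in genes below 40% GC, whereas library 3 lies at 0.05.

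UPF1 itself (ENSG00000005007.13, chr19:18831938-18868236 in GRCh38) was low in every library that received its siRNA. It stood at 164, 140 and 143 CPM with control siRNA and 26.8, 26.4 and 25.5 CPM with UPF1 siRNA. The groups did not overlap. The log2 fold change was -2.51 ± 0.12 (SE, edgeR adjusted p = 1.2e-09), and -2.59 with library 3 alone. Of 15390 genes tested, 5128 were called (33.3%), 2710 of them higher (17.6%) and 2418 lower (15.7%). The counts of each gene list below are to be read against these shares. Statements that groups did not overlap describe only the values of the genes named. The share of all genes tested without overlap is not given here. With library sizes in place of the trimmed-mean scaling, which moved the median of all genes by 0.12, 67.1% of the calls were higher instead of 52.8%. At least 2-fold rises numbered 520 (3.38%) and at least 2-fold falls 889 (5.78%). Library 3 alone gave 1812 calls (11.8%), 959 higher (6.23%) and 853 lower (5.54%), and 1754 of these were called in the same direction with all 3 libraries. Of the 1409 called changes of at least 2-fold, 960 were also at least 2-fold in the same direction with library 3 alone.

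**Figure D2:**
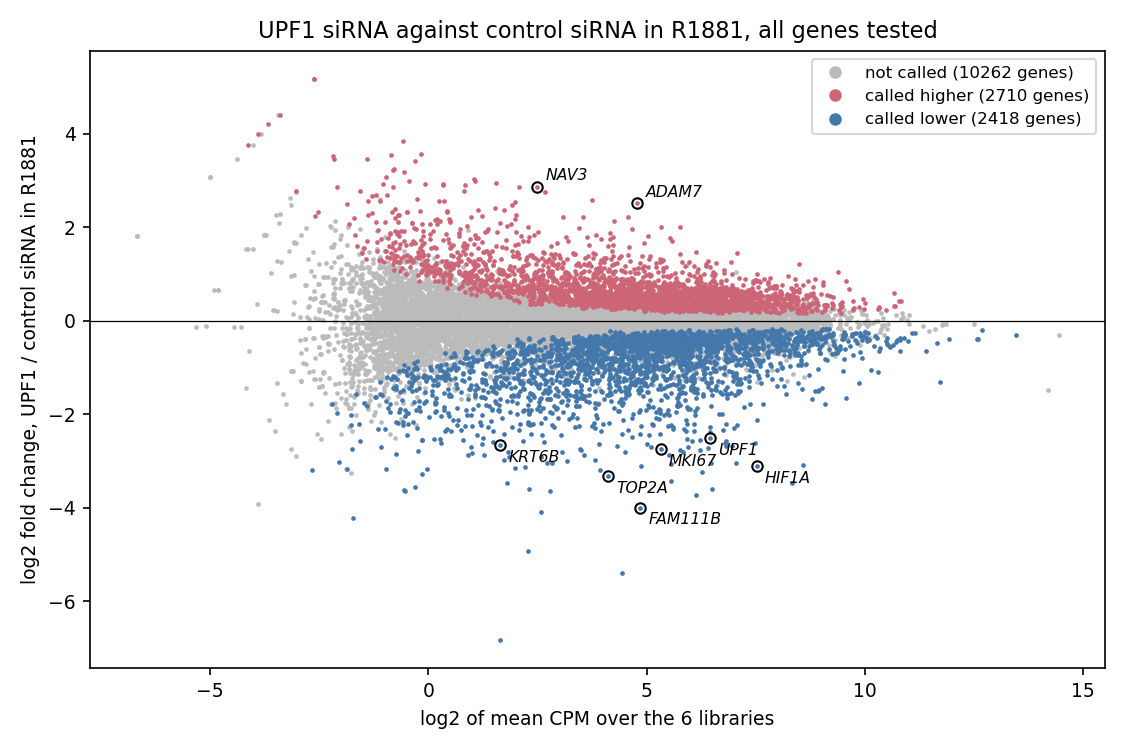
Log2 fold change of UPF1 siRNA against control siRNA in R1881 (y axis) against the log2 of the mean CPM over the 6 libraries (x axis) for the 15390 genes tested, coloured by call. UPF1 lies at -2.51, and HIF1A, TOP2A and FAM111B lie among the steepest falls at -3.11, -3.32 and -4.

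By transcript class, 259 of 1960 long noncoding RNAs were called higher (13.2%) and 137 lower (6.99%). Of 12415 protein-coding genes, 18.8% were higher and 17.7% lower. Pseudogenes were called higher in 13.4% of 599 and lower in 6.68%. With library 3 alone the shares were 5% higher and 2.09% lower for long noncoding RNAs, 6.47% and 6.38% for protein-coding genes, and 6.84% and 1.67% for pseudogenes.

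The NMD machinery other than UPF1 changed in part, mostly upward. Of 11 factors, 4 were called higher and 1 lower, with a median of 0.29 against 0.00 over all genes tested. SMG9, a regulatory subunit of the SMG1 kinase, stood at 15.1, 12.3 and 11 CPM with control siRNA and 24.9, 23.6 and 23.2 CPM with UPF1 siRNA. The groups did not overlap, and the log2 fold change was 0.90 ± 0.11 (SE, edgeR adjusted p = 1.4e-05). SMG8, its partner subunit, moved the other way, from 49.9, 46.4 and 46.4 CPM to 29.2, 28.9 and 26.8 CPM, with a log2 fold change of -0.75 ± 0.088 (SE, edgeR adjusted p = 1.2e-05). UPF3A, which binds the exon junction complex, rose by 0.64 ± 0.09 (SE, edgeR adjusted p = 7e-05), from 24.1, 27.3 and 28.6 to 41.5, 39.3 and 43.5 CPM. The adaptor SMG5 rose by 0.49 ± 0.10 (SE, edgeR adjusted p = 0.0022). It missed the threshold with library 3 alone, at 0.33 (adjusted p = 0.24), as did the endonuclease SMG6, with 0.48 and 0.40 (adjusted p = 0.096). SMG9, UPF3A and SMG8 were called with library 3 alone as well. SMG1, whose transcripts hold 42.3% GC, showed the split between libraries: it stood at 155, 301 and 278 CPM with control siRNA and 194, 210 and 492 CPM with UPF1 siRNA and was not called (0.29, adjusted p = 0.56).

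Transcripts reported as NMD-sensitive were called higher in 11 of 20 cases and lower in none, with a median of 0.47. In the fit to library 3 alone, 4 were called higher and none lower, with a median of 0.34. DDIT3, the pro-apoptotic stress transcription factor also known as CHOP, stood at 24.4, 21.7 and 24.3 CPM with control siRNA and 57.5, 53 and 57.3 CPM with UPF1 siRNA. All 3 values with UPF1 siRNA were above every control value, and the log2 fold change was 1.25 ± 0.095 (SE, edgeR adjusted p = 2.1e-07). ATF4, the master factor of the integrated stress response, whose mRNA carries upstream reading frames, went from 354, 313 and 318 to 641, 615 and 567 CPM, a log2 fold change of 0.89 ± 0.077 (SE, edgeR adjusted p = 7.5e-07). ERN1, the stress sensor IRE1 of the endoplasmic reticulum (ER), went from 174, 169 and 168 to 277, 285 and 275 CPM (0.71 ± 0.061 SE, edgeR adjusted p = 6.8e-07). IFRD1 rose by 1.06 ± 0.21 (SE, edgeR adjusted p = 0.001). These 4 were also the members called with library 3 alone. SLC7A11, the cystine transporter, had no call: it stood at 182, 397 and 366 CPM with control siRNA and 83, 101 and 272 CPM with UPF1 siRNA, with 35.9% GC in its transcripts.

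In the exon junction complex 1 of 10 genes was called, PNN, which was lower (-1, adjusted p = 0.018) and lost its call with library 3 alone (-0.49, adjusted p = 0.44). RBM8A and RNPS1 were not called, at -0.08 and -0.10. The list's median was -0.10, and 0.01 with library sizes alone. Of 15 snoRNA host genes, whose spliced RNAs are classic NMD substrates, 3 were higher and 5 lower, against 17.6% and 15.7% of all genes. Their median was 0.01 and their mean -0.07. SNHG16 fell by 0.84 ± 0.077 (SE, edgeR adjusted p = 1.3e-06), from 215, 206 and 207 to 119, 116 and 114 CPM, and SNHG3 and SNHG1 fell, with -0.73 and -0.53, all of them called with library 3 alone. SNHG32 rose (0.70, adjusted p = 0.016) and had 0.68 (adjusted p = 0.17) with library 3 alone. GAS5, a known NMD substrate, showed 0.10 (adjusted p = 0.4). Splicing factors with poison exons, cassette exons that target their own mRNA to NMD, were called higher in none of 20 cases and lower in 6. Their median was -0.33 (-0.15 with library 3 alone). Their transcripts were AT-rich, with a median GC content of 41.8% against 49% over all genes. With the GC offset the median was -0.18, and 7 were called lower. HNRNPD fell by 0.43 ± 0.08 (SE, edgeR adjusted p = 0.00076) and kept its call with library 3 alone, whereas TRA2A and SRSF3, at -0.51 and -0.46, did not, at -0.26 (adjusted p = 0.32) and -0.44 (adjusted p = 0.19). Counts per gene do not separate isoforms with and without such exons.

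In the general decay machinery 6 of 38 genes were higher and 4 lower, no more than the 17.6% and 15.7% of all genes tested. The median was -0.06 (0.06 with library sizes in place of the trimmed-mean scaling). EXOSC6, a subunit of the RNA exosome, rose by 0.57 ± 0.069 (SE, edgeR adjusted p = 1.7e-05), and PNRC2, which links UPF1 to decapping, by 0.61 ± 0.21 (SE, edgeR adjusted p = 0.032). Both calls stood with library 3 alone. The steepest falls, TTC37 of the SKI complex (-2.25) and the exosome nuclease DIS3 (-1.49), were not called with library 3 alone, at -1.33 (adjusted p = 0.22) and -0.76 (adjusted p = 0.4). Their transcripts hold 38.4% and 40.5% GC, and the fit of all libraries with the GC offset gave -1.81 and -1.22.

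**Figure D3:**
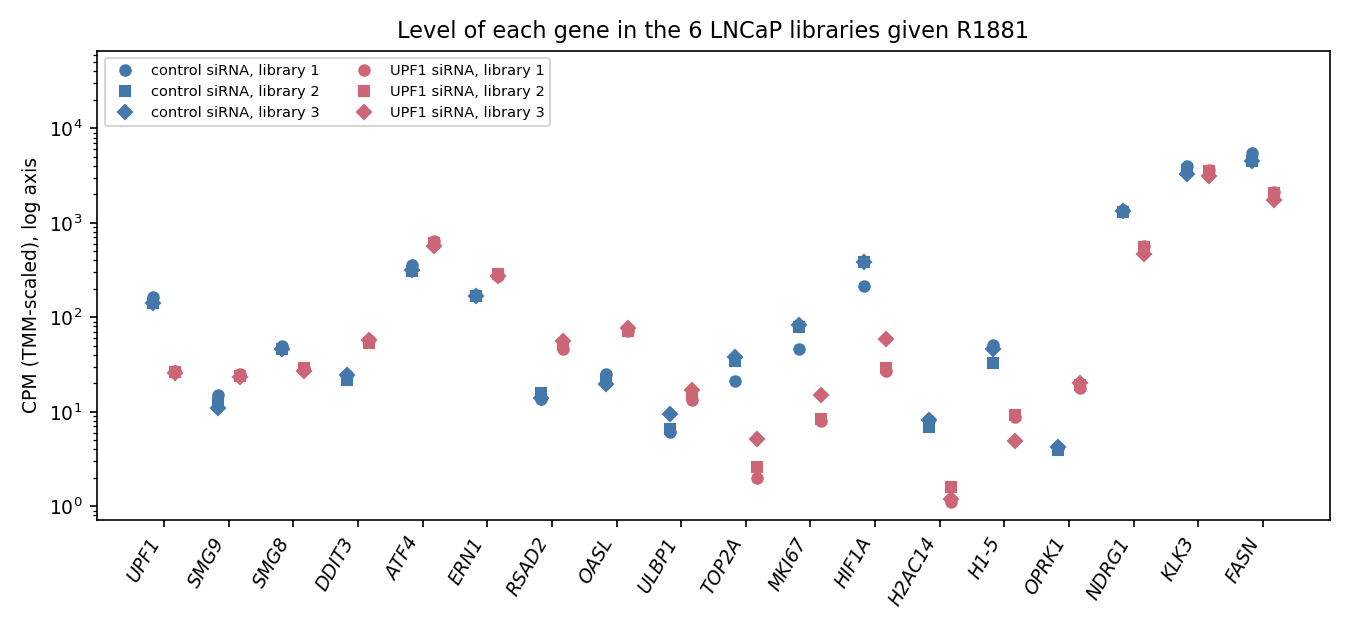
Level of 18 genes in each of the 6 libraries (CPM, log axis), control siRNA left and UPF1 siRNA right for each gene, with 1 symbol per library. DDIT3, ATF4, RSAD2 and OPRK1 lie higher and UPF1, TOP2A, MKI67, H2AC14, H1-5, NDRG1 and FASN lie lower with UPF1 siRNA, without overlap, whereas KLK3 overlaps.

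Genes of cell division had the lowest median of the 27 lists examined. Of 36 mitosis genes 35 were called lower and none higher, against 15.7% and 17.6% of all genes tested. The median log2 fold change was -1.77. With library 3 alone 23 were called lower, with a median of -1.73. In bulk RNA, fewer dividing cells and less of these RNAs per cell cannot be told apart. The list's transcripts were somewhat AT-rich, with a median GC content of 45% against 49% over all genes. TOP2A, the topoisomerase that untangles chromosomes, stood at 21.4, 34.6 and 37.8 CPM with control siRNA and 1.97, 2.59 and 5.10 CPM with UPF1 siRNA. Its log2 fold change was -3.32 ± 0.52 (SE, edgeR adjusted p = 0.00019), and -2.64 (adjusted p = 0.032) with library 3 alone. MKI67, the source of the Ki-67 proliferation antigen, stood at 46.6, 79.7 and 82.6 CPM with control siRNA and 7.96, 8.33 and 15.1 CPM with UPF1 siRNA, a log2 fold change of -2.75 ± 0.39 (SE, edgeR adjusted p = 7.3e-05). In both genes library 3 was the highest of the UPF1 siRNA libraries and control library 1 the lowest of its group. The kinetochore genes CENPF and CENPE and the spindle gene ASPM had the steepest log2 fold changes, -5.38, -4.09 and -4.91, and were not called with library 3 alone, at -4.74 (adjusted p = 0.065), -3.75 (adjusted p = 0.11) and -4.77 (adjusted p = 0.076). CENPF stood at 27.9, 50.7 and 49 CPM with control siRNA and 0.581, 0.98 and 1.62 CPM with UPF1 siRNA. PLK1, a mitotic kinase with 57.2% GC, fell by 1.82 ± 0.17 (SE, edgeR adjusted p = 1.7e-06) and stood at -2.07 (adjusted p = 0.00057) with library 3 alone. NUSAP1 was the member without a call (-2.01, adjusted p = 0.054).

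Many mitosis genes are repressed in resting cells by the DREAM complex through a promoter element called CHR, so promoter sequences are shown for the 3 steepest falling members in which the element, TTTGAA on either strand, lay before the annotated start. Each line gives 100 bases, with every match in capitals, from RefSeq promoter windows (GRCh38.p14) that reach from 250 bases before to 50 bases after the start.
ASPM (chr1:197146728-197146827, minus strand): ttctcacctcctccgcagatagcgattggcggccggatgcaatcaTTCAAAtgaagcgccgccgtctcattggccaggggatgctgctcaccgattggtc
TOP2A (chr17:40417993-40418092, minus strand): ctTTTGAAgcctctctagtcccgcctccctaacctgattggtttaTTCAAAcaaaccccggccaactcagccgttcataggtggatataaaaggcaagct
HMMR (chr5:163460532-163460631, plus strand): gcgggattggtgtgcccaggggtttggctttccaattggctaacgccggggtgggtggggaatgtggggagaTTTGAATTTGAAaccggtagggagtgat
Of 36 mitosis genes, 31 had a window, and 22 of these held TTTGAA (71%), against 15.4% of 27305 windows in all and 9.65% of those of tested genes. The CCAAT box (CCAAT on either strand, whose matches can overlap those of TTTGAA at their ends) was in 24 of the 31 (77.4%) against 35.7% of all windows, and both were in 18 (58.1%) against 6.08%. Windows of all genes called lower held TTTGAA in 12.9% of cases and those of all genes called higher in 7.64%. All genes called lower include the called members of the mitosis list. The share in that list is a property of the list as drawn up. The matches describe these windows and do not show binding. HMMR, a spindle-associated protein, fell by 3 ± 0.56 (SE, edgeR adjusted p = 0.00075), from 10.4, 18.2 and 19.1 to 0.987, 1.68 and 3.57 CPM, and gave -2.18 (adjusted p = 0.076) with library 3 alone.

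DNA replication genes were lower in 23 of 39 cases and higher in 2, with a median of -0.41 (-0.43 and 15 lower with library 3 alone). MCM10, a replication initiation factor, fell from 6.78, 7.38 and 9.94 to 1.86, 1.75 and 1.70 CPM (-2.16 ± 0.29 SE, edgeR adjusted p = 4.5e-05). UHRF1, which maintains DNA methylation at the fork, fell from 10.3, 8.99 and 9.67 to 3.31, 2.52 and 2.04 CPM (-1.85 ± 0.24 SE, edgeR adjusted p = 3.2e-05), and the helicase activator CDC45 fell by 1.61 ± 0.27 (SE, edgeR adjusted p = 0.00036). All 3 calls stood with library 3 alone. The ribonucleotide reductase subunit RRM1 had no call, at -0.01. Among 21 genes of G1 control, 8 were lower and 3 higher. The atypical repressor E2F8 fell by 2.23 ± 0.42 (SE, edgeR adjusted p = 0.00081), E2F5 fell by 1.22 ± 0.19 (SE, edgeR adjusted p = 0.00018), both called with library 3 alone too. CDK6 and E2F7, at -1.17 and -1.02, had -0.78 (adjusted p = 0.3) and -1.03 (adjusted p = 0.12) with library 3 alone, and cyclin D1 (CCND1) had no call in either fit (-0.09, adjusted p = 0.23).

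Replication-dependent histone genes fell with them. Of 68 listed, 45 were tested, of which 37 were called lower and none higher, with a median of -1.17. Judged by library 3 alone, 28 were lower and none higher, with a median of -1.25. Histone transcripts are GC-rich, with a median of 58.4% in this list. Reads shared between near-identical histone copies leave the split between single genes uncertain. H1-5, a linker histone, stood at 50.5, 32.7 and 46.1 CPM with control siRNA and 8.71, 9.24 and 4.93 CPM with UPF1 siRNA. The groups were far apart, and the log2 fold change was -2.48 ± 0.27 (SE, edgeR adjusted p = 7.1e-06). H2AC14 went from 8.15, 6.87 and 8.13 to 1.10, 1.61 and 1.19 CPM (-2.56 ± 0.31 SE, edgeR adjusted p = 1.5e-05) and H2AC12 from 10.9, 9.21 and 10.8 to 1.92, 1.61 and 2.21 CPM (-2.43 ± 0.25 SE, edgeR adjusted p = 3.4e-06). H2AC4 fell by 2.83 ± 0.48 (SE, edgeR adjusted p = 0.00037). H2BC21 and H2AC6, which are also known as polyadenylated histone transcripts, were not called, at -0.02 and 0.12. H2BC21 stood at 305, 276 and 273 CPM with control siRNA and 290, 281 and 268 CPM with UPF1 siRNA, with overlap.

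These mRNAs end in a stem-loop in place of a poly(A) tail, the structure through which their decay with UPF1 is known to start, so it is shown for 3 members that fell by different amounts and for 2 that were not called, chosen with their values known. The capitals mark the 16-base stem-loop and are flanked by 5 bases on each side, from GENCODE v29 transcripts (GRCh38).
H2AC11 (chr6:27133510-27133535, plus strand; log2 fold change -2.07): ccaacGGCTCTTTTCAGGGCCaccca
H2AC13 (chr6:27808642-27808667, plus strand; log2 fold change -2): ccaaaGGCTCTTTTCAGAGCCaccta
H4C5 (chr6:26204996-26205021, plus strand; log2 fold change -0.91): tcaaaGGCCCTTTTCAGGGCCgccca
H2BC15 (chr6:27839085-27839110, plus strand; log2 fold change -0.32, not called): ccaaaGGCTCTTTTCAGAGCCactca
H2BC21 (chr1:149886183-149886208, minus strand; log2 fold change -0.02, not called): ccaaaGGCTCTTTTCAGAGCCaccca
The pattern searched was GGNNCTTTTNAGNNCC with at least 5 of 6 stem bases paired. It was in annotated transcripts of 33 of 15203 tested genes with a transcript (0.217%), among them 20 of the 45 histone genes tested. Of these 20, 16 were called lower, with a median of -0.80. Of 24 whose annotated transcripts did not hold these letters 20 were called lower, with a median of -1.73. Annotated genes as short as that of H2AC14 (chr6:27814354-27814740) may end before the stem-loop. The 2 medians therefore do not compare mRNAs with and without a stem-loop. The stem-loop of H2AC13, called lower, and those of H2BC15 and H2BC21, not called, had the same 16 letters.

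Stress-response genes rose in part. Of 39 tested genes of the integrated stress response, 15 were called higher and 3 lower, with a median of 0.26 (8 higher and 2 lower with library 3 alone, median 0.15). DDIT3 and ATF4, described above as NMD-sensitive, led this list. CHAC1, which degrades glutathione, stood at 22.8, 17.5 and 14.2 CPM with control siRNA and 35.4, 34.3 and 29.7 CPM with UPF1 siRNA, with a log2 fold change of 0.86 ± 0.20 (SE, edgeR adjusted p = 0.0033). It was not called with library 3 alone (0.67, adjusted p = 0.17). SLC6A9, a glycine transporter, moved the other way, from 28, 21.3 and 21.5 to 13.7, 13 and 12.1 CPM (-0.87 ± 0.13 SE, edgeR adjusted p = 9.2e-05). The aminoacyl-tRNA synthetase genes AARS1 (0.15) and TARS1 (-0.18), known targets of ATF4, had no call. Other synthetase genes were called in both directions. Of 20 cytosolic ones, a family chosen after the results were known, 4 were higher and 4 lower, with a median of -0.17. Over all genes tested 17.6% were higher and 15.7% lower.

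The ER chaperone and secretion list gave 20 of 30 genes higher and 3 lower, with a median of 0.35 (10 higher and 2 lower with library 3 alone, median 0.27). SEC24D, a coat protein of vesicles that leave the ER, stood at 110, 137 and 136 CPM with control siRNA and 236, 232 and 233 CPM with UPF1 siRNA. The groups did not overlap, and the log2 fold change was 0.87 ± 0.091 (SE, edgeR adjusted p = 4.4e-06). EIF2AK3, the ER stress kinase PERK, rose from 63.5, 83.4 and 79.7 to 125, 132 and 139 CPM (0.81 ± 0.13 SE, edgeR adjusted p = 0.00017). The lectin chaperone CANX went against the list, from 476, 640 and 634 to 260, 256 and 270 CPM, with -1.16 ± 0.14 (SE, edgeR adjusted p = 1.7e-05) and -1.15 (adjusted p = 0.0023) with library 3 alone. SEL1L, of ER-associated degradation, fell by 0.95 and lost its call with library 3 alone (-0.59, adjusted p = 0.36). HSP90B1 and EDEM1 had no call, at -0.36 and 0.05.

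Interferon-stimulated genes were higher in 23 of 41 cases and lower in 1, with a median of 0.51. With library 3 alone 17 were higher and none lower, with a median of 0.61. RSAD2, the antiviral enzyme viperin, stood at 13.6, 15.8 and 14.1 CPM with control siRNA and 46.7, 51 and 55.5 CPM with UPF1 siRNA. Every UPF1 siRNA value was above every control value, and the log2 fold change was 1.81 ± 0.13 (SE, edgeR adjusted p = 1.1e-07). OASL, a relative of the oligoadenylate synthetases, went from 25.1, 22.3 and 19.7 to 71.6, 72 and 76.2 CPM (1.71 ± 0.17 SE, edgeR adjusted p = 2.5e-06). BST2, which tethers virions to the cell surface, went from 3.82, 3.73 and 3.61 to 12.8, 12.5 and 10.04 CPM (1.67 ± 0.22 SE, edgeR adjusted p = 4.4e-05). The signal transducer STAT2 rose by less, 0.38, and had 0.32 (adjusted p = 0.18) with library 3 alone. SAMD9, with 36.1% GC, was the member called lower (-2.27, adjusted p = 0.012), and lost its call with library 3 alone (-1.37, adjusted p = 0.33). PARP9 and HERC6 were not called, at 0.21 and 0.21. Leukocyte markers were close to 0: 3 of 6, PTPRC and CD3E among them, had no count in any of the 6 libraries, and the summed level was at most 1.36 CPM.

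Interferon acts on these promoters through the interferon-stimulated response element, whose core is a repeat of GAAA. Promoter stretches of 100 bases are shown for the 3 steepest rising members with the core GAAANNGAAA on either strand before the annotated start, with every match in capitals (RefSeq windows, GRCh38.p14).
BST2 (chr19:17405700-17405799, minus strand): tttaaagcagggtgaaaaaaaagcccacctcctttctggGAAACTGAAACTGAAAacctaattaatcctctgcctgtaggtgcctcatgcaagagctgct
IFI27 (chr14:94110596-94110695, plus strand): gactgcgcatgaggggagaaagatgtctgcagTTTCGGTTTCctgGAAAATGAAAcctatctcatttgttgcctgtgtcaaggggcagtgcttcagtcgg
IFIT3 (chr10:89327830-89327929, plus strand): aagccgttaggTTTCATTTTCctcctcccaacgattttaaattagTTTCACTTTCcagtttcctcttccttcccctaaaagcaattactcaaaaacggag
Of 41 tested members 32 had a window, and 23 of these held the core (71.9%), against 3.65% of all 27305 windows. Among members called higher it was 12 of 17 with a window (70.6%). Among all genes called higher it was 2.55% and among all genes called lower 2.71%, against 2.74% of tested genes. The share in the list is a property of the list as drawn up. It does not show binding. IFI27 and IFIT3, both induced by interferon, rose by 1.32 ± 0.21 (SE, edgeR adjusted p = 0.00023) and 1.23 ± 0.19 (SE, edgeR adjusted p = 0.00017), and both were called with library 3 alone.

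Genes of class I antigen presentation were mostly not called: 2 of 15 were higher and 1 lower, against 17.6% and 15.7% of all genes. Their median was 0.28 and, through HLA-B, their mean -0.13. PSMB9, an immunoproteasome subunit, stood at 0.649, 0.658 and 0.542 CPM with control siRNA and 2.03, 2.38 and 1.96 CPM with UPF1 siRNA, a log2 fold change of 1.76 ± 0.30 (SE, edgeR adjusted p = 0.00041). ERAP1, which trims peptides in the ER, rose by 0.73 ± 0.10 (SE, edgeR adjusted p = 5.4e-05). Both calls stood with library 3 alone. B2M and TAP1 were not called, at -0.10 and 0.29. HLA-B was the member called lower (adjusted p = 0.012), with 93, 72 and 75 counts in the control libraries and 2, 0 and 0 in the UPF1 siRNA libraries, and was not called with library 3 alone (adjusted p = 0.20). Reads of HLA genes are shared between loci and alleles.

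Ligands of the NKG2D receptor, by which natural killer cells recognise stressed cells, were higher in 4 of the 5 that could be tested (8 listed), with a median of 0.89. In the fit to library 3 alone, 3 were higher. RAET1L went from 2.60, 2.63 and 1.99 to 7.55, 9.24 and 10.4 CPM (1.89 ± 0.18 SE, edgeR adjusted p = 2.1e-06), ULBP1 from 6.13, 6.58 and 9.58 to 13.5, 14.9 and 17 CPM (1.03 ± 0.17 SE, edgeR adjusted p = 0.00024) and ULBP3 rose by 0.89 ± 0.15 (SE, edgeR adjusted p = 0.00043). The groups did not overlap in any of these 3, which was not set against the share of all genes tested. ULBP2 rose by 0.54 and had 0.52 (adjusted p = 0.22) with library 3 alone, and MICA was not called (0.09). These genes are close copies in 1 cluster on chromosome 6, apart from MICA, and share reads to an unknown degree.

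Of 20 tested regulators and targets of NF-kappaB (27 listed) 8 were higher and 1 lower, with a median of 0.11 (5 higher and 1 lower with library 3 alone). TNFAIP3, the inhibitor A20, stood at 30.6, 27.4 and 31.2 CPM with control siRNA and 48.5, 46.7 and 51.4 CPM with UPF1 siRNA, with a log2 fold change of 0.72 ± 0.14 (SE, edgeR adjusted p = 0.0012). NFKBIB, another inhibitor, rose by 1.03 ± 0.18 (SE, edgeR adjusted p = 0.00056). The chemokine CCL20 was scarce, at 0.505, 0.146 and 0.181 CPM with control siRNA and 2.03, 2.10 and 2.55 CPM with UPF1 siRNA, and rose by 2.92 ± 0.49 (SE, edgeR adjusted p = 0.00031). CXCL8 rose by 1.41 and lost its call with library 3 alone (1.48, adjusted p = 0.16). RELA and NFKBIA had none, at 0.04 and -0.04.

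The androgen programme itself changed gene by gene. Of 44 androgen-induced genes 17 were called lower and 7 higher, with a median of -0.18, and with library 3 alone 14 and 6. KLK3, which encodes prostate-specific antigen, was not called: it stood at 3971, 3592 and 3300 CPM with control siRNA and 3590, 3505 and 3121 CPM with UPF1 siRNA, with overlap (-0.09, adjusted p = 0.55). NDRG1, a stress- and androgen-responsive gene, was low in every UPF1 siRNA library, at 1379, 1294 and 1348 CPM with control siRNA and 574, 557 and 472 CPM with UPF1 siRNA. Its log2 fold change was -1.33 ± 0.098 (SE, edgeR adjusted p = 1.8e-07). The secreted glycoprotein AZGP1 fell from 205, 168 and 154 to 82.2, 77.7 and 71.8 CPM (-1.18 ± 0.13 SE, edgeR adjusted p = 7.4e-06). The steroid receptor co-chaperone FKBP5 and the protease TMPRSS2 fell, with -0.64 ± 0.11 (SE, edgeR adjusted p = 0.00036) and -0.43 ± 0.071 (SE, edgeR adjusted p = 0.00027). In the other direction, ADAM7, a metalloprotease-like protein of the male tract, rose from 6.85, 9.57 and 7.95 to 38.9, 39.8 and 62 CPM (2.52 ± 0.21 SE, edgeR adjusted p = 5.6e-07). Coagulation factor F5 rose from 36, 57 and 55.7 to 109, 109 and 125 CPM (1.21 ± 0.19 SE, edgeR adjusted p = 0.00017). In vehicle, UPF1 siRNA raised ADAM7 and F5 too, by 1.73 and 1.74, and neither was called for the difference between media. NDRG1 and AZGP1 had 0.16 and 0.08 in vehicle, without calls. All 6 were called with library 3 alone.

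Among 18 tested androgen-repressed genes 8 were higher and 2 lower, with a median of 0.21 (6 and 2 with library 3 alone, median 0.49). OPRK1, the kappa opioid receptor, stood at 4.18, 3.95 and 4.25 CPM with control siRNA and 18.1, 19.1 and 20.3 CPM with UPF1 siRNA. The spread within each group was small beside the difference of 2.21 ± 0.085 (SE, edgeR adjusted p = 2.1e-10). The neuronal adhesion gene SLITRK3 went from 0.577, 0.439 and 0.452 to 2.09, 2.24 and 2.47 CPM (2.17 ± 0.20 SE, edgeR adjusted p = 1e-06). DDC, which makes dopamine and serotonin, rose from 6.78, 8.77 and 9.49 to 26.5, 30.2 and 30.5 CPM (1.80 ± 0.13 SE, edgeR adjusted p = 1.1e-07). IL1RN, the interleukin-1 receptor antagonist, rose by 1.74 ± 0.17 (SE, edgeR adjusted p = 2.1e-06). These 4 were called with library 3 alone, and PRKD1 was not called in either fit (-0.08).

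A broader set was taken from other libraries: the genes that R1881 raised or lowered at least 2-fold in cells with RCOR1 siRNA, none of whose libraries enter the comparison. It holds 757 raised (4.92% of genes tested) and 838 lowered genes (5.45%). With UPF1 siRNA in vehicle, 195 of the raised genes were called higher and 76 lower, with a median of 0.21. For the lowered genes these values were 194, 205 and -0.07. Over all genes in vehicle 18.5% were higher and 16% lower. Of the raised genes 158 were higher with UPF1 siRNA in R1881 (20.9%) and 178 lower (23.5%), with a median of -0.08. Of the lowered genes 166 were higher (19.8%) and 140 lower (16.7%), with a median of 0.11. The medians were -0.01 and 0.08 with library 3 alone. Over all genes tested 17.6% were called higher and 15.7% lower. Judged by library 3 alone, 12.7% of the raised genes were higher and 11.4% lower, and 9.19% and 10.5% of the lowered genes.

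Coregulators and lineage factors of the androgen response were not called higher in any of 20 cases and lower in 8, with a median of -0.19 (5 lower with library 3 alone). SPDEF, a luminal lineage factor, fell from 360, 292 and 296 to 218, 210 and 173 CPM (-0.66 ± 0.13 SE, edgeR adjusted p = 0.0011), and the homeobox factor HOXB13 from 458, 382 and 386 to 307, 301 and 272 CPM (-0.48 ± 0.10 SE, edgeR adjusted p = 0.0023). Both calls stood with library 3 alone. The SUMO ligase PIAS1 and the chaperone HSP90AA1 fell, with -1.21 and -1.06, and were not called with library 3 alone, at -0.75 (adjusted p = 0.12) and -0.39 (adjusted p = 0.5). The corepressor NCOR1 was not called, at -0.07.

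**Figure D4:**
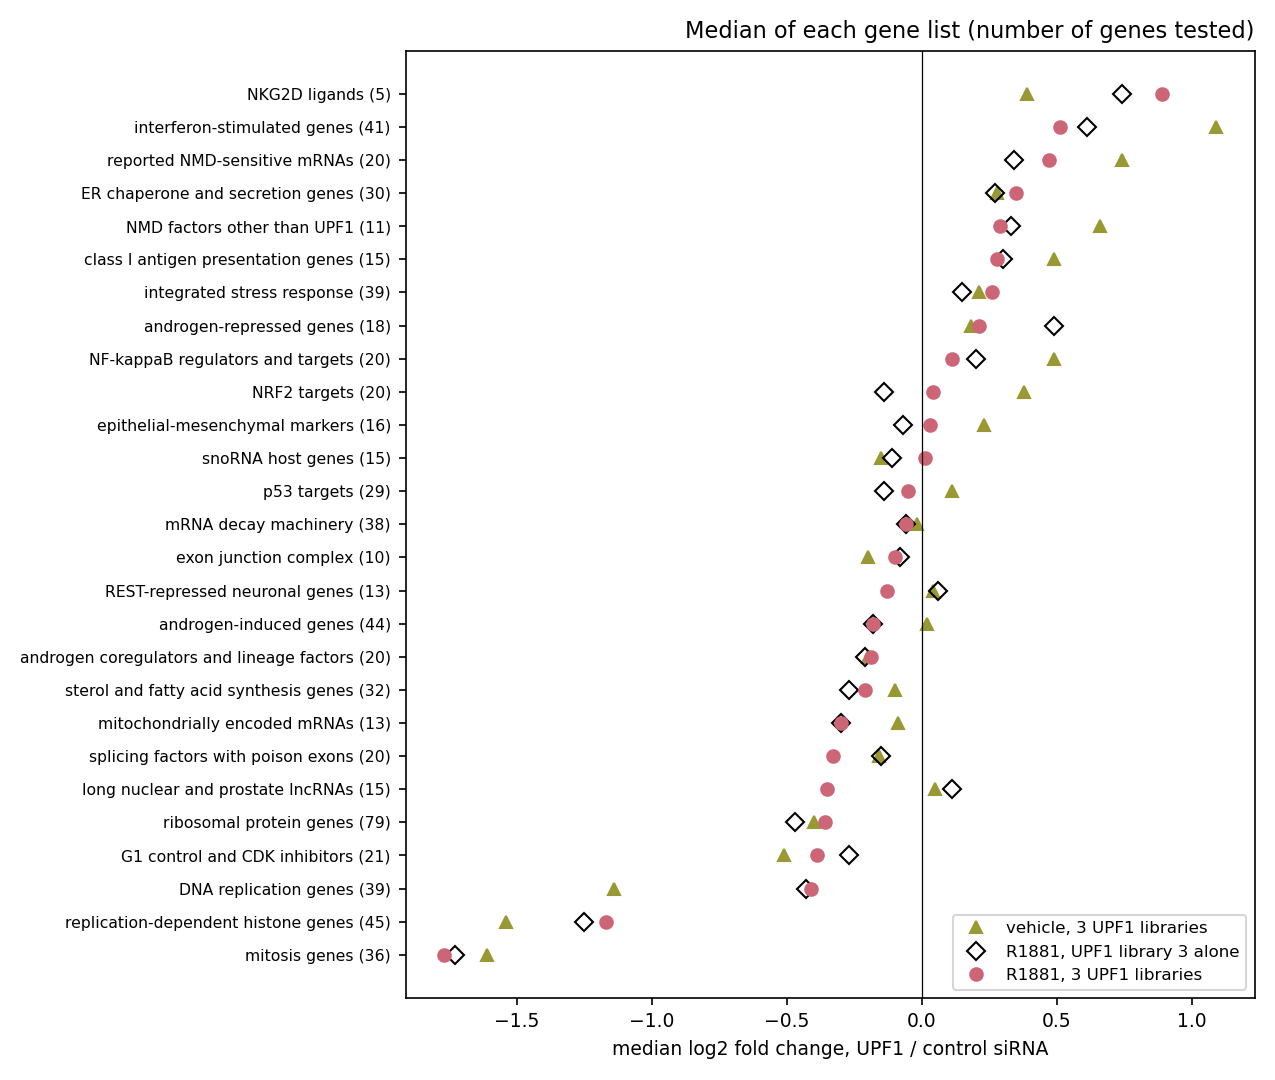
Median log2 fold change of UPF1 siRNA against control siRNA (x axis) for 27 gene lists (y axis, with the number of genes tested), in R1881 with all 3 UPF1 siRNA libraries, in R1881 with library 3 alone, and in vehicle. Mitosis and histone genes lie lowest in all 3, at -1.77 and -1.17 in R1881, whereas DNA replication genes lie at -0.41 in R1881 and at -1.14 in vehicle.

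Lipid synthesis genes were lower in 11 of 32 cases and higher in 2, with a median of -0.21. FASN, the fatty acid synthase, was abundant and stood at 5419, 4538 and 4555 CPM with control siRNA and 2128, 2051 and 1727 CPM with UPF1 siRNA. Every UPF1 siRNA library was below every control library, with a log2 fold change of -1.30 ± 0.13 (SE, edgeR adjusted p = 2.5e-06). The desaturases FADS2 and FADS1 fell with it, at -1.48 ± 0.12 (SE, edgeR adjusted p = 3.1e-07) and -0.98 ± 0.11 (SE, edgeR adjusted p = 6e-06). SC5D, of cholesterol synthesis, rose from 111, 179 and 185 to 222, 262 and 414 CPM (0.92 ± 0.25 SE, edgeR adjusted p = 0.011). All 4 were called with library 3 alone, and ACACA, the carboxylase upstream of FASN, had no call (0.02).

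Ribosomal protein genes fell by small amounts: 67 of 79 were lower and none higher, with a median of -0.36 and a range from -0.72 to 0.11. With library 3 alone 29 were lower and none higher, with a median of -0.47. RPS3A stood at 810, 730 and 798 CPM with control siRNA and 505, 513 and 554 CPM with UPF1 siRNA, with -0.57 ± 0.075 (SE, edgeR adjusted p = 3.8e-05). RPL15 and RPS18 were not called, at -0.18 and -0.36. Reads of their many pseudogenes may be assigned to either copy. Of 13 mitochondrially encoded mRNAs 8 were lower and none higher, with a median of -0.30, and with library 3 alone 2 were lower. MT-CO2, a cytochrome c oxidase subunit, stood at 3684, 3182 and 3144 CPM with control siRNA and 2094, 2065 and 2231 CPM with UPF1 siRNA, with -0.65 ± 0.12 (SE, edgeR adjusted p = 0.00054). With library sizes alone the medians of these lists were -0.25 and -0.18.

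Targets of p53 were called higher in 7 of 29 cases and lower in 5, against 17.6% and 15.7% of all genes, with a median of -0.05 (0.06 with library sizes alone), and with library 3 alone 1 and 1, against 6.23% and 5.54%. PHLDA3, an inhibitor of AKT, rose from 38.9, 30.7 and 29.6 to 89.1, 75.7 and 74.1 CPM (1.27 ± 0.16 SE, edgeR adjusted p = 2e-05) and kept its call. The falls of RRM2B, FAS and CCNG1, -1.54, -1.31 and -0.98, did not, at -0.87 (adjusted p = 0.27), -0.86 (adjusted p = 0.16) and -0.42 (adjusted p = 0.38). MDM2 had no call (-0.44). Targets of NRF2, the oxidative stress factor, were higher in 3 of 20 cases and lower in 3, against the same 17.6% and 15.7%. OSGIN1 rose by 1.34 ± 0.19 (SE, edgeR adjusted p = 8.2e-05), with 13, 10.7 and 11.4 and 33.8, 30.02 and 25.2 CPM in the 2 groups, and TKT, of the pentose phosphate pathway, fell by 0.65 ± 0.12 (SE, edgeR adjusted p = 0.00057). Both were called with library 3 alone, and the abundant FTH1 and TXNRD1 were not called in either fit.

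Some genes of other lineages rose at low levels. Of 13 tested neuronal genes under REST (27 listed) 4 were higher and 1 lower, with a median of -0.13 and a mean of 0.56. SYP, the synaptic vesicle protein synaptophysin and a neuroendocrine marker, stood at 4.54, 4.90 and 3.70 CPM with control siRNA and 17.8, 17.4 and 17.2 CPM with UPF1 siRNA, with 1.98 ± 0.14 (SE, edgeR adjusted p = 8.1e-08). The neurofilament NEFL and the cadherin CELSR3 rose by 1.71 ± 0.21 (SE, edgeR adjusted p = 1.6e-05) and 1.22 ± 0.14 (SE, edgeR adjusted p = 1.4e-05). SCG3, of secretory granules, had 2, 1 and 0 counts with control siRNA and 17, 18 and 18 with UPF1 siRNA. All 4 were called with library 3 alone. The summed level of the 5 neuroendocrine markers was 3.70 to 4.90 CPM with control siRNA and 17.4 to 18 CPM with UPF1 siRNA, nearly all of it SYP, and the defining markers CHGA and INSM1 had no count in any of the 6 libraries. The 4 endothelial markers summed to 3.51 to 4.90 CPM with control siRNA and 12.9 to 15.5 CPM with UPF1 siRNA, mostly VWF, with CDH5 at 0. The 4 basal markers summed to 2.44 to 2.96 CPM and 5.87 to 7.14 CPM, mostly KRT14, with TP63 at 0. The 7 fibroblast markers summed to 22.3 to 28 CPM and 14.4 to 16.6 CPM, mostly ACTA2, with COL1A2 and DCN at 0. The part of such cells in the results was not tested beyond these levels. The 3 erythroid markers stood at 0.232 CPM or less in sum.

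Epithelial and mesenchymal markers gave 3 of 16 higher and 2 lower, against 17.6% and 15.7% of all genes. CLDN8, a tight junction claudin, stood at 14.8, 19.7 and 22 CPM with control siRNA and 43.1, 52.3 and 52.5 CPM with UPF1 siRNA, with 1.39 ± 0.18 (SE, edgeR adjusted p = 2.7e-05), and occludin (OCLN) rose by 0.50 ± 0.13 (SE, edgeR adjusted p = 0.0072). The mesenchymal filament VIM was scarce and fell by 0.67 (adjusted p = 0.04), with -0.63 (adjusted p = 0.32) in library 3 alone. The luminal keratins KRT8 and KRT18 were not called, at -0.06 and 0.00. Among 15 long noncoding RNAs of the nucleus and of prostate 4 were higher and 4 lower, with a median of -0.35, and of 0.11 with library 3 alone. PCAT1 fell from 13.5, 16.5 and 17.1 to 5.28, 4.76 and 5.70 CPM (-1.58 ± 0.14 SE, edgeR adjusted p = 8e-07), and LINC01138 rose by 1.03 ± 0.13 (SE, edgeR adjusted p = 3.4e-05). NORAD was not called (0.03).

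The 14 steepest rises among genes of at least 2 CPM that were also called with library 3 alone had log2 fold changes from 3.02 to 2.27. That the groups did not overlap in any of the 14 follows largely from this choice, made in the same libraries. NAV3, a neuronal navigator protein, stood at 0.937, 1.90 and 1.18 CPM with control siRNA and 8.65, 10.1 and 11.1 CPM with UPF1 siRNA (2.87 ± 0.29 SE, edgeR adjusted p = 3.4e-06). The epidermal keratin KRT2 went from 0.937, 0.95 and 1.18 to 7.90, 7.98 and 6.38 CPM (2.87 ± 0.18 SE, edgeR adjusted p = 5.7e-08), and REG4, a secreted lectin of the gut, from 1.01, 0.512 and 0.452 to 6.27, 5.04 and 4.34 CPM (2.95 ± 0.31 SE, edgeR adjusted p = 4.8e-06). DLX3 and HOPX, homeobox factors of epithelial differentiation, rose by 2.99 and 2.38, and the transporters ABCC11 and SLC22A10 by 2.27 and 2.38. ZPLD1 rose by 2.75. The other 6 were ADAM7, described above, the noncoding RNAs GAPLINC (3.02), LINC00511 (2.48), ERVE-1 (2.55) and CTD-2311B13.5 (2.41), and the pseudogene AC005077.14, which stood at 3.89, 3.58 and 3.98 CPM with control siRNA and 22.5, 23 and 23.3 CPM with UPF1 siRNA (2.59 ± 0.17 SE, edgeR adjusted p = 6.6e-08). ERVE-1, CTD-2311B13.5 and AC005077.14 may share reads with copies elsewhere in the genome.

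Of the 14 steepest falls under the same rule, 11 were genes of cell division, chromosome structure or histones. TOP2A, MKI67, H2AC4, H2AC14 and H1-5 are described above. ANLN, NCAPG and CENPU had -2.97, -3.05 and -2.76. ESCO2 and SGO1, which set and protect sister chromatid cohesion, had -2.98 and -2.62, and the mitotic kinase PBK -2.59. FAM111B, a serine protease, fell from 31.6, 61.8 and 68.8 to 1.57, 3.01 and 5.95 CPM (-4 ± 0.68 SE, edgeR adjusted p = 0.00036). HIF1A, the oxygen-regulated transcription factor, stood at 217, 388 and 384 CPM with control siRNA and 27.2, 29.3 and 58.4 CPM with UPF1 siRNA. Its UPF1 siRNA values lay far below every control value, with -3.11 ± 0.39 (SE, edgeR adjusted p = 2.4e-05) and -2.53 (adjusted p = 0.0055) with library 3 alone. KRT6B went from 5.41, 5.85 and 4.97 to 1.16, 0.56 and 0.765 CPM (-2.66 ± 0.33 SE, edgeR adjusted p = 2e-05), with KRT6A at -2.16 and KRT6C at -0.92. These 3 keratins are near-identical copies.

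In vehicle, measured in 6 other libraries, UPF1 siRNA gave 5318 calls (34.6%), 2853 higher (18.5%) and 2465 lower (16%). Called in the same direction in both media were 3058 genes, 59.6% of the calls in R1881 and 57.5% of those in vehicle, and 52 were called in opposite directions. The test of the difference between the media called 419 genes (2.72%), with 208 more positive (1.35%) and 211 more negative (1.37%) in R1881. Leaving out UPF1 siRNA libraries 1 and 2 in R1881 gave 57 calls, of which 56 were among the 419 in the same direction. Leaving out any 1 library gave between 195 and 1169 calls, the highest without UPF1 siRNA library 3 in R1881.

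The differences fell on genes of several groups. DNA replication genes were less reduced in R1881: their median was -0.41 against -1.14 in vehicle, and 15 of 39 were called for the difference, all more positive in R1881. None of these 15 was called for the difference with library 3 alone. Of 41 interferon-stimulated genes 4 were called for the difference, all more negative in R1881, with medians of 0.51 in R1881 and 1.09 in vehicle, and none of the 4 with library 3 alone. Of 18 androgen-repressed genes 5 were called, all more positive, and 2 of them, OPRK1 and SLITRK3, with library 3 alone. OPRK1 rose by 2.21 in R1881 and 1.09 in vehicle, a difference of 1.12 ± 0.11 (SE, edgeR adjusted p = 4.1e-05). S1PR3, a lipid receptor, rose by 1.44 ± 0.11 (SE, edgeR adjusted p = 2.5e-07) in R1881 against 0.21 in vehicle, and the scavenger receptor COLEC12 by 1.39 ± 0.098 (SE, edgeR adjusted p = 1.1e-07) against 0.26. LPCAT1, of phospholipid remodelling, showed 0.42 against -0.56. EMP2, a membrane protein of epithelia, had -1.58 in vehicle, where it was called, and -0.16 in R1881, where it was not.

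More negative in R1881 were AGR2, CDKN2B, S100P, KLF4 and ERRFI1. AGR2, a secreted disulfide isomerase, rose by 0.62 in R1881 and 2.89 in vehicle, a difference of -2.26 ± 0.14 (SE, edgeR adjusted p = 5.6e-07). CDKN2B, the inhibitor of CDK4 and CDK6, stood at 14.1, 18.5 and 16.5 CPM with control siRNA and 16.6, 17.5 and 18.5 CPM with UPF1 siRNA in R1881 and was not called (0.10), against 2.75 in vehicle. S100P and KLF4 likewise showed -0.07 and 0.01 in R1881, without calls, against 2.17 and 2.13 in vehicle. ERRFI1, the feedback inhibitor of the EGF receptor, fell in R1881 (-0.48 ± 0.069 SE, edgeR adjusted p = 7.9e-05) and rose in vehicle (0.95, adjusted p = 8.6e-08). These 5 and the 4 genes OPRK1, LPCAT1, COLEC12 and S1PR3 were also called for the difference with library 3 alone, as was EMP2.

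**Figure D5:**
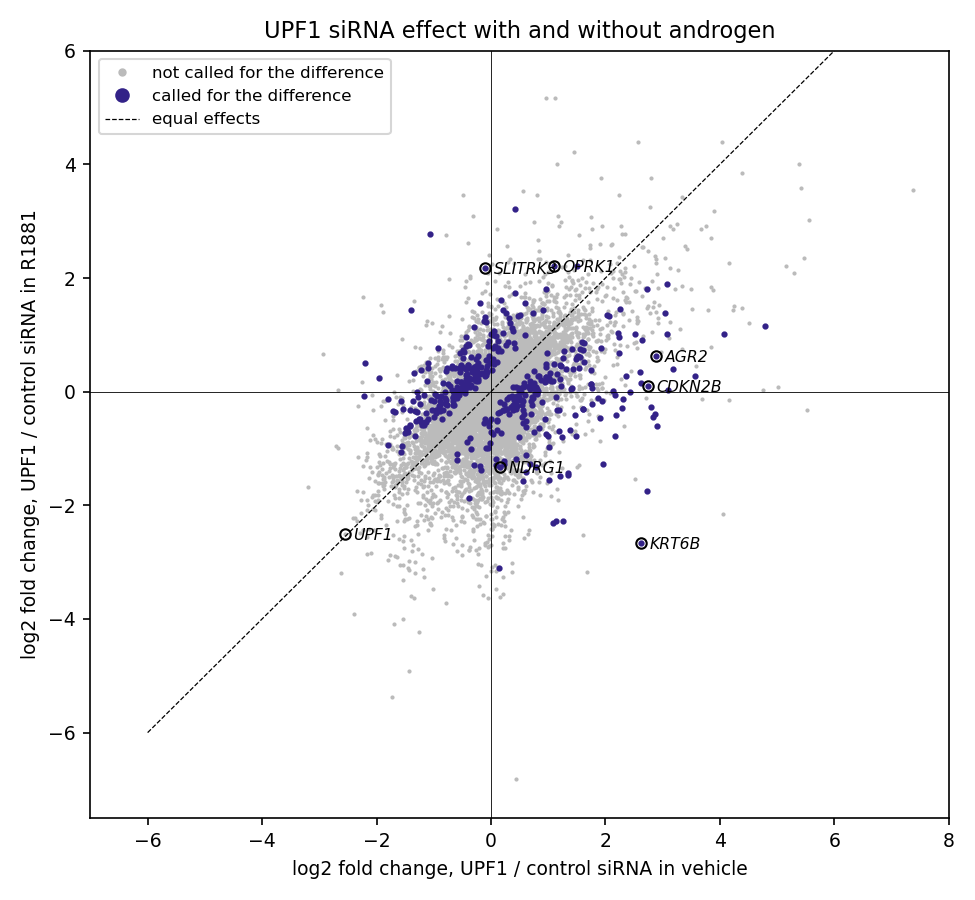
Log2 fold change of UPF1 siRNA against control siRNA in R1881 (y axis) against that in vehicle (x axis) for the 15390 genes tested, with the 419 genes called for the difference in purple and equal effects as a dashed line. UPF1 lies near the line at -2.51 and -2.56, AGR2 and CDKN2B lie far to its right at 2.89 and 2.75 in vehicle, and SLITRK3 and OPRK1 lie above it at 2.17 and 2.21 in R1881.

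Set directly against RCOR1 siRNA in R1881, UPF1 siRNA gave 6244 calls (40.6%), 3349 higher (21.8%) and 2895 lower (18.8%). RCOR1 siRNA against control siRNA in R1881 uses the same 3 control libraries, so values are given side by side only. The median of mitosis genes was -1.77 with UPF1 siRNA and -0.20 with RCOR1 siRNA, that of ribosomal protein genes -0.36 and 0.00, and that of interferon-stimulated genes 0.51 and 0.12. ER chaperone and secretion genes had medians of 0.35 and -0.36, and genes of the integrated stress response 0.26 and -0.35. Androgen-induced genes had -0.18 and -0.30.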

How the data were processed

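The values used were raw counts per gene, deposited as 1 table of 60649 genes by 18 libraries. Per the submitters' processing notes, the tools were bcl2fastq 2.20, STAR 2.7.9a and featureCounts of Subread 1.6.4 with the build GRCh38.p7. Per the labels' protocols, total RNA (500 ng per library) was prepared with the HyperPrep and RiboErase kits. The annotation release and the strand setting were not given in the sources used here, so reads of overlapping and antisense genes may be shared.

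From these counts, edgeR 4.0.16 (R 4.3.3) was run on 6 groups of 3 libraries with TMM scaling, its low-count filter and the quasi-likelihood F test. P-values were Benjamini-Hochberg adjusted over 15390 genes. Each SE was obtained from a gene's log2 fold change and its F statistic, as their ratio after taking the root of F. Where UPF1 siRNA library 3 stands alone, it is assumed to vary like the other groups. The fit to all libraries was also run on simulated counts with equal spread and no GC tilt. The fit with library 3 alone was not simulated. Depth ranged from 12499252 to 17338235 counts in the 6 libraries compared.

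Alternatives were DESeq2 1.42.0, library size alone, no low-count filter, a fit to the groups of the contrast, leaving out libraries, and a GC offset (lowess, span 0.3) from GENCODE v29 transcripts, known for 98.8% of tested genes. The GC offset together with library 3 alone was added after seeing the data, as were the gene sets from the RCOR1 siRNA libraries. Promoter windows came from RefSeq (GRCh38.p14). The members and lists were chosen with earlier results of these data known.

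Genes were named by rule: UPF1, the 14 largest rises and the 14 largest falls with at least 2 CPM on average and a call with library 3 alone, up to 4 called members with the largest change and up to 2 abundant uncalled members of each list, and 5 genes in each direction for the difference between media. Genes on the Y chromosome and XIST were left out, and some genes that the rule names are not reported here. SMG6, PLK1, HMMR, STAT2, IFI27, IFIT3, FKBP5, TMPRSS2, KRT6A, KRT6C and the histone genes shown by sequence were chosen after their values were seen.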

Additional observations from a re-analysis of the deposited data

Results flagged for a closer look

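For 28 of the genes named, the effect of UPF1 siRNA differed between R1881 and vehicle by edgeR's test of the difference itself, at an adjusted p below 0.05. The values that follow are the log2 fold change in R1881 minus that in vehicle. Of these, 16 kept an adjusted p below 0.05 with UPF1 siRNA library 3 as the only UPF1 siRNA library in R1881. More negative in R1881 in this way were -2.26 for AGR2, -1.43 for ERRFI1, -2.65 for CDKN2B, -2.24 for S100P, -2.12 for KLF4, -1.48 for NDRG1, -1.26 for AZGP1, -5.28 for KRT6B and -1.65 for CLDN8. Reads of KRT6B may be shared with its near-identical copies. More positive in R1881 were 2.28 for SLITRK3, 1.12 for OPRK1, 0.98 for LPCAT1, 1.13 for COLEC12, 1.23 for S1PR3 and 1.42 for EMP2. B2M, the light chain of class I molecules, had -0.81, and with the GC offset -0.40 (adjusted p = 0.39).

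The other 12 had adjusted p values from 0.07 to 0.46 for the difference with library 3 alone. Negative differences among them were -0.56 for ERN1, -0.91 for RSAD2, -0.67 for HERC6, -0.43 for TXNRD1, -3.06 for PCAT14, -1.18 for RAET1L, -0.41 for TNFRSF10B, -3.41 for SAMD9 and -1.45 for PIAS1. Positive ones were 1.32 for IL1RN, 0.54 for H2BC21 and 0.84 for DDC. ERRFI1 and KRT6B were called in opposite directions in the 2 media, with -0.48 and -2.66 in R1881 and 0.95 and 2.62 in vehicle. LPCAT1 was higher in R1881 at 0.42 and lower in vehicle at -0.56.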

How the results depend on the processing

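The 5128 calls in R1881 came to 1812 with UPF1 siRNA library 3 as the only UPF1 siRNA library, with 959 higher and 853 lower instead of 2710 and 2418. The higher calls numbered 1777 in a fit to the groups of the contrast only, and 1688 with library 3 alone and the GC offset together, which was chosen after seeing the data. The 6244 calls of UPF1 siRNA against RCOR1 siRNA came to 2263 with library 3 alone. The 419 calls for the difference between media moved most: 639 with DESeq2, 1320 without the low-count filter, 168 in a fit to the groups of the contrast only, 57 with library 3 alone and 1779 with the GC offset. Leaving out 1 library at a time gave 195 (without UPF1 siRNA library 2 in vehicle) to 1169 (without UPF1 siRNA library 3 in R1881). It gave 196 and 210 without UPF1 siRNA libraries 1 and 2 in R1881, 208 and 231 without control libraries 2 and 3 in R1881, and 230 and 274 without control libraries 2 and 3 in vehicle. The cause of these shifts was not tested. The fit with library 3 alone rests on fewer libraries and has less power. Its lower counts do not by themselves show smaller differences. None of the 183 genes examined under the 13 settings reversed a called direction. With library 3 alone, 136 kept their side of the threshold, 33 lost their call and 14 uncalled genes changed sign. No paired analysis was made, because the labels carry running title numbers and no replicate numbers. By title order, MALAT1 was lowest in the first R1881 library of each siRNA. It stood there at 14540 CPM with control siRNA, 12980 with RCOR1 siRNA and 3761 with UPF1 siRNA. The labels do not say whether title order marks sets prepared together, and an effect of such sets was not tested. Depth was unequal by less than 1.5 times and limits mainly genes with few counts, such as SCG3.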

Other observations

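Families chosen by symbol after the results were known gave further counts for UPF1 siRNA against control siRNA in R1881, where 17.6% of all genes were called higher and 15.7% lower. Of 37 proteasome subunit genes, 11 were called higher and 3 lower, with a median log2 fold change of 0.18, and 1 was higher with library 3 alone. Of 27 genes with a SEC or SAR1 symbol, most of them of the translocon or of vesicle coats, 11 were higher and 3 lower, with a median of 0.17, and 6 and 1 with library 3 alone. Of 9 genes of the CCT chaperonin, which folds actin and tubulin, 6 were lower and none higher, with a median of -0.35. TCP1 (-0.44) and CCT2 (-0.36) were lower with library 3 alone as well. None of 12 cytochrome c oxidase subunit genes was called in either direction by edgeR.

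Of 447 zinc finger genes with a ZNF symbol, 115 were lower and 26 higher, with a median of -0.25. With library 3 alone 14 were lower and 8 higher, with a median of -0.12. ZNF292 (-3.11, 39.1% GC) and ZNF91 (-2.30, 39.3% GC) were among the lower genes that had no call with library 3 alone. Of 9 genes with an MCM symbol, 6 were lower and 2 higher. MCM2 (-0.71) and MCM3 (-0.72), of the replicative helicase, fell, and MCM9 (0.62), which acts in recombination, rose. These 3 calls stood with library 3 alone.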
